A study of Mus musculus with 6 samples.

Results

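The axon guidance ligands and receptors are the secreted and membrane-bound cues, and their cell-surface receptors, that steer growing axons and also act in epithelia and vessels. All rows whose symbol belongs to the semaphorins, plexins, neuropilins, ephrins, Eph receptors, Slits, Robos, netrins with netrin-Gs, the Unc5 receptors or Dcc were taken, which gave 72 of the 24453 rows of the count files. Of these, 71 are protein-coding genes and 1, Plxna4os1, is an antisense noncoding RNA at the Plxna4 locus. The members were measured by bulk RNA-seq of skin cells sorted from mice at postnatal day 0. There were 3 libraries labelled Ring1a/b 2KO (genotype Ring1a-/- Ring1b-/-) and 3 labelled control. RING1A and RING1B, encoded by Ring1 and Rnf2, are the catalytic subunits of Polycomb repressive complex 1 (PRC1), a chromatin complex that keeps developmental genes silent. The comparison asks how transcripts differ when both are lost. The labels give the same tissue and age for both groups and no treatment. The sources used here do not give how the deletion was driven, the alleles of the control mice, the strain, or whether each library came from 1 animal or a pool, so p-values measure the spread between these libraries only.

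As background, semaphorins signal through plexins, and most secreted class 3 semaphorins need a neuropilin as the binding co-receptor. Ephrins are membrane-bound ligands of the Eph tyrosine kinases, and signals run into both cells at a contact. Slits bind Robo receptors, and netrins bind Dcc and Unc5 receptors. In skin, several of these genes act in keratinocyte adhesion and in the patterning of nerves and vessels around the follicle. PRC1 is recruited in many cells to promoters rich in unmethylated CG dinucleotides.

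Total counts were 26.7, 29.9 and 24.8 M (M, mega) in libraries labelled 2KO, replicates 1, 2 and 3, and 28.2, 30.4 and 30.8 M in those labelled control. Levels are CPM (counts per megacount after TMM scaling), given below in the order of replicates 1, 2 and 3, and 1 count was worth between 0.0323 and 0.0392 CPM. Neither targeted gene set the groups apart. Ring1 was at 1.84, 7.34 and 14.1 CPM in libraries labelled 2KO, against 19.5, 22.4 and 3.37 CPM in those labelled control (edgeR adjusted p = 0.537). Rnf2 was at 75.3, 66.4 and 89.2 CPM in libraries labelled 2KO, against 67.7, 79.5 and 47.1 CPM in those labelled control (edgeR adjusted p = 0.615). In control replicate 3 Ring1 was lower than in 2 of the 3 libraries labelled 2KO, against its label, so groups are called by their labels throughout. The labels name hair follicle cells, while the protocol attached to them describes a gate on EpCAM, Sca1 and α6-integrin for interfollicular epidermis. The basal keratin Krt14 ran from 2852 to 4087 CPM in libraries labelled 2KO and from 1475 to 4067 CPM in those labelled control. Ly6a, which encodes Sca1, lay between 1.92 and 7.28 CPM. Xist was at 5361, 4952 and 10.4 CPM in libraries labelled 2KO, against 2.48, 9.27 and 4555 CPM in those labelled control.

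The start sites of the members that passed the threshold differed in base composition. The sequences below are the 250 bases before the RefSeq start (GRCm38.p6), 5′ to 3′ on the gene's strand, with each CG dinucleotide in capitals. The first 4 belong to genes that were higher in libraries labelled 2KO and the last 2 to the genes that were lower. They are shown because CG-rich start sites are where PRC1 is usually found. They are the called members with only 1 RefSeq start, where that start lies close to the GENCODE 5′ end. It lies at the same base for Unc5a, Unc5b and Sema3e, and 10, 24 and 29 bases away for Plxnc1, Ephb2 and Ephb6.
Unc5a (chr13:54949161-54949410, plus strand): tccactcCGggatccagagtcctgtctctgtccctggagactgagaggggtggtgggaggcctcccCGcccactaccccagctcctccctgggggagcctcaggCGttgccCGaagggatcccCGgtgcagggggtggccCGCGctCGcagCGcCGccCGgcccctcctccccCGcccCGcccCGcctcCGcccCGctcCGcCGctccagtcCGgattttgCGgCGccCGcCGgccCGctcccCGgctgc
Unc5b (chr10:60831582-60831831, minus strand): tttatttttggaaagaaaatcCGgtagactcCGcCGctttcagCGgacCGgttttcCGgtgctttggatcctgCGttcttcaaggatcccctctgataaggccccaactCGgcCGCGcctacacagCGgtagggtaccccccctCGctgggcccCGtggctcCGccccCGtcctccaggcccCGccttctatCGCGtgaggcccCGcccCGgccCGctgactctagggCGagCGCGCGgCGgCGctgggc
Ephb2 (chr4:136836013-136836262, minus strand): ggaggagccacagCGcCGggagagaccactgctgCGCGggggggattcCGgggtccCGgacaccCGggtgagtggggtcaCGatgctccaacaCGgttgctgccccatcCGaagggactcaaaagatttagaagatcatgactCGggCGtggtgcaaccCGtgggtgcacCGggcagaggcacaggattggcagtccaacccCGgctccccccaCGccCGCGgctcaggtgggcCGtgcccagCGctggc
Plxnc1 (chr10:94944846-94945095, minus strand): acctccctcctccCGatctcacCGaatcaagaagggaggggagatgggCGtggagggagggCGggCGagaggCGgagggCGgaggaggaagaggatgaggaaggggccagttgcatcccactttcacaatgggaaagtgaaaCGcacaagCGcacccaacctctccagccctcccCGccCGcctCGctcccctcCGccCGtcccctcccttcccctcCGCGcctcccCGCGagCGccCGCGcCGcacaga
Sema3e (chr5:14025026-14025275, plus strand): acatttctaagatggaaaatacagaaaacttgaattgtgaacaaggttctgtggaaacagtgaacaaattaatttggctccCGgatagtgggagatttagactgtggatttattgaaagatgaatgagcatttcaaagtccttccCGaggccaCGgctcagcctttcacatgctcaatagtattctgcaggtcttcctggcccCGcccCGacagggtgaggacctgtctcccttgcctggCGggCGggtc
Ephb6 (chr6:41605261-41605510, plus strand): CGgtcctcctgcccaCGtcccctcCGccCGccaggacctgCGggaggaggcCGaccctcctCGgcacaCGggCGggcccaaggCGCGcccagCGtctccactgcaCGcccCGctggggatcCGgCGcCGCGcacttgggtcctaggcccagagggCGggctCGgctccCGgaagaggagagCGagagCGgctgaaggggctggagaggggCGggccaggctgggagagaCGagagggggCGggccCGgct

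In these 250 bases Unc5a held 25 CG dinucleotides, Unc5b 27, Ephb2 20 and Plxnc1 22, while of the genes that were lower Sema3e held 7 and Ephb6 27. The set is not the whole of the called members: Sema5b held 19, Nrp1 11 and Ntng2 4, with RefSeq starts 217, 469 and 4906 bases downstream of the GENCODE 5′ end. Over 300-base windows (250 bases before to 50 after a start), CG was counted as the letters C then G, which read the same on both strands. Of 72 members 61 had a window in the RefSeq table, with 77 windows in all and a median of 19 CG, and 62.3% of the windows held 15 or more. Over all tested genes the median was also 19 and the share with 15 or more was 63.7%, and over all windows of the table that share was 34.6%. Among members higher in libraries labelled 2KO, 5 of 9 windows (8 genes) held 15 or more, from 6 in Ntng2 and in 1 window of Sema6d to 37 in Unc5a. Sema6d had 2 windows and so was left out of the printed set. Its window at the GENCODE 5′ end held 14. The members that moved were therefore not uniformly CG-rich: Ephb6, which was lower, had 34 and Sema3e 11. A CG count describes these letters and says nothing of what binds there.

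The guidance genes moved in both directions, and more members were higher than lower in libraries labelled 2KO. By edgeR's quasi-likelihood test, with Benjamini-Hochberg adjustment over all 14972 tested genes, 9 members were higher (Unc5a, Unc5b, Slit1, Sema5b, Sema6d, Ntng2, Ephb2, Plxnc1 and Nrp1) and 2 were lower (Sema3e and Ephb6) at an adjusted p under 0.05. These are 11 of 61 tested members (18%), beside 9.02% of all tested genes. DESeq2 called these 11 and 11 more, and it also called more of all tested genes. Of the 14972 it called 1415 higher and 733 lower, beside 989 and 362 by edgeR. In the direction of higher, the share was 14.8% of tested members beside 6.61% of all tested genes, and in the direction of lower 3.28% beside 2.42%. The remaining 11 of 72 members fell below the low-count filter. A gene silent or low in libraries labelled control entered the test only if expressed in those labelled 2KO, as Unc5a, Sema4f and Sema6b did. These shares therefore describe the tested members and support no statement on the families as a whole. The median log2 fold change was 0.16 over tested members and -0.02 over all tested genes. The groups did not overlap for 29 tested members (47.5%), beside 28.4% of all tested genes. In 18 of the 61 the libraries labelled 2KO lay above, beside 15.2% of all tested genes, and in 11 of the 61 they lay below, beside 13.1%. In these bulk libraries fewer cells of a type and less RNA per cell cannot be told apart.

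**Figure D1:**
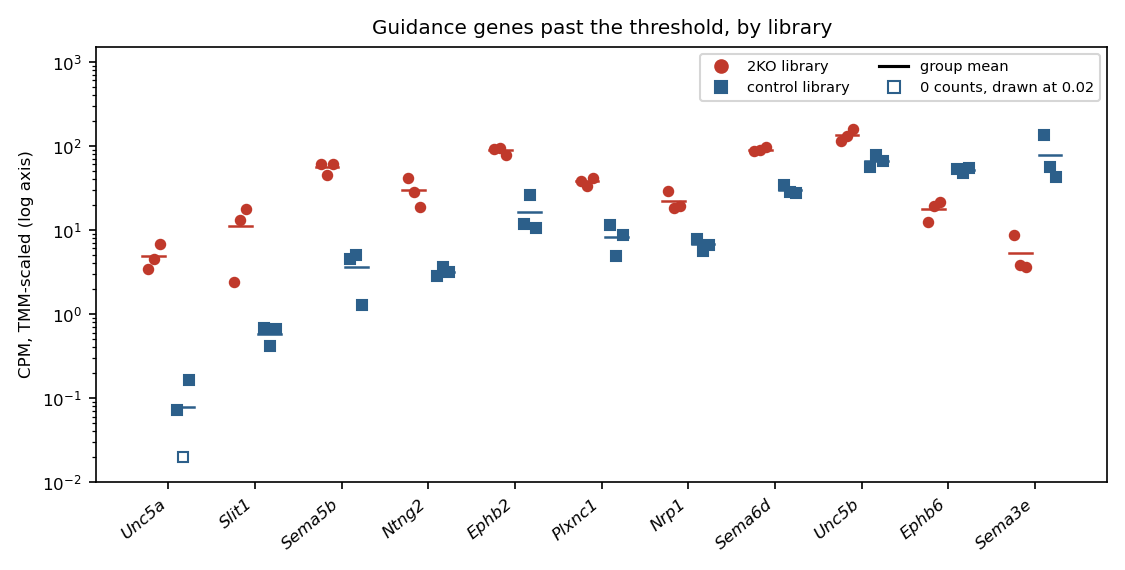
CPM of the 11 members past the threshold in each library (log axis), with 2KO libraries as circles left of control libraries as squares, bars at the group mean and a library at 0 counts drawn open at 0.02. In all 11 the groups did not overlap; Unc5a averaged 4.9 CPM in libraries labelled 2KO against 0.0781 in those labelled control, and Sema3e 5.35 against 78.4.

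Among the ligands, semaphorins split by gene. Sema5b (chromosome 16, 35541145 to 35664732, plus strand), a transmembrane semaphorin with thrombospondin repeats that repels axons in the retina, was at 61.6, 45.6 and 60.9 CPM in libraries labelled 2KO, against 4.51, 5.04 and 1.28 CPM in those labelled control. Every library labelled 2KO was far above every one labelled control, with a log2 fold change of 3.96 (SE 0.47, edgeR adjusted p = 0.00135). Sema6d (chromosome 2, 124089969 to 124667770, plus strand), a transmembrane ligand of type A plexins, was at 85.8, 88.5 and 96.5 CPM in libraries labelled 2KO, against 34.0, 28.0 and 27.8 CPM in those labelled control. The replicates of Sema6d lay close together within each group, and its log2 fold change was 1.59 (SE 0.19, edgeR adjusted p = 0.00135).

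Sema3e (chromosome 5, 14025276 to 14256689, plus strand), a secreted semaphorin that signals through Plexin-D1 without a neuropilin in vessels, showed the deepest fall of any tested member. It was at 8.71, 3.77 and 3.57 CPM in libraries labelled 2KO, against 136, 56.6 and 42.6 CPM in those labelled control. Replicate 1 was the highest in both groups, yet the groups were well apart (log2 fold change -3.87, SE 0.53, edgeR adjusted p = 0.00249). Sema3a, Sema3b, Sema3c and Sema3f lay below 0 without passing by edgeR, while DESeq2 called Sema3b (adjusted p = 0.00341) and Sema3c (0.0133). Sema3b was at 14.4, 5.24 and 8.44 CPM in libraries labelled 2KO, against 44.1, 15.6 and 26.9 CPM in those labelled control (log2 fold change -1.62, SE 0.45, edgeR adjusted p = 0.057). Sema3c, which guides neural crest cells, was at 48.9, 42.9 and 51.6 CPM in libraries labelled 2KO, against 71.1, 87.5 and 72.4 CPM in those labelled control (log2 fold change -0.69, SE 0.19, edgeR adjusted p = 0.0507). For both genes the groups did not overlap. Sema3b passed in 5 of 14 other fits, DESeq2 among them. By edgeR these were no low-count filter (0.0175), replicate number as a block (0.00337), and without 2KO replicate 1 (0.0336) or control replicate 2 (0.0317). Sema3c passed in 2 of 14, DESeq2 and edgeR with a filter of 1 CPM in 3 libraries (0.0487). Of 6 tested class 3 semaphorins 5 had a log2 fold change below 0 (median -0.60), beside 7690 of all 14972 tested genes. Sema3d was the exception at 0.14. In 4 of the 6 the libraries labelled 2KO lay wholly below those labelled control, beside 13.1% of all tested genes, and 1 passed the threshold. Sema3g was near 0 everywhere, at 0.355 CPM or less, and was not tested.

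Of 4 tested class 6 genes, Sema6d passed and 3 were above 0, beside 7282 of 14972 tested genes above 0. Among the 3 was Sema6b, which entered the test only through the libraries labelled 2KO, so its direction was tied to the filter. Sema6b was at 0.863, 0.834 and 1.80 CPM in libraries labelled 2KO, against 0.213, 0.258 and 0.196 CPM in those labelled control (edgeR adjusted p = 0.119), while Sema6a, far more abundant, was at 167 ± 13.6 CPM in libraries labelled 2KO and 225 ± 88.3 CPM in those labelled control (SD, n = 3 each; edgeR adjusted p = 0.396). Of 6 tested class 4 genes none passed, with 2 at an unadjusted p under 0.05, beside 3227 of all 14972 tested genes. By DESeq2, 1 of the 6 passed: Sema4f, at 2.51, 0.601 and 0.785 CPM in libraries labelled 2KO, against 0, 0.194 and 0 CPM in those labelled control (edgeR log2 fold change 4.22, SE 1.38, adjusted p = 0.0988). CPM per kb of exon allows a rough comparison of different genes, since it counts all annotated exons of a gene and not the transcript expressed. On this scale Sema3f was at 21.8 in libraries labelled 2KO and 23.4 in those labelled control. Sema6a was at 19.1 in libraries labelled 2KO and 25.6 in those labelled control. Sema3f thus led in libraries labelled 2KO and in the average of both groups, while Sema6a led in those labelled control. The edgeR adjusted p of Sema3f was 0.865, and its direction turned without 2KO replicate 1 or control replicate 3. Summed per kb over the family, semaphorins reached 142 ± 9.23 in libraries labelled 2KO and 162 ± 17.3 in those labelled control, and the ranges overlapped.

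Of the ephrins, the membrane-bound ligands of Eph receptors, none of 8 passed the threshold. An unadjusted p under 0.05 was found for 5 of the 8, beside 3227 of all 14972 tested genes. DESeq2 called 3 (Efna2 and Efnb3 higher, Efnb2 lower). Efnb2, a ligand of EphB receptors best known from arteries, was at 159, 110.4 and 146 CPM in libraries labelled 2KO, against 275, 232 and 183 CPM in those labelled control (log2 fold change -0.73, SE 0.21, edgeR adjusted p = 0.0603). All 3 libraries labelled 2KO lay below all 3 labelled control. Efnb2 passed in 3 of 14 other fits: DESeq2, and edgeR with no low-count filter (0.0353) or with replicate number as a block (0.0381). Efnb3, another ephrin-B, lay the other way, at 10.1, 12.4 and 13.5 CPM in libraries labelled 2KO, against 2.38, 7.78 and 1.602 CPM in those labelled control (edgeR adjusted p = 0.115). Averaged over both groups Efna5 was the most abundant ephrin per kb, at 34.7 CPM per kb in libraries labelled 2KO and 31.2 in those labelled control (edgeR adjusted p = 0.753). The family sum was nearly level, at 132 ± 1.54 CPM per kb in libraries labelled 2KO and 128 ± 8.25 in those labelled control (SD, n = 3 each), while Efnb2 made up 15.3% ± 2.93 of it in libraries labelled 2KO and 26.0% ± 3.56 in those labelled control.

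The 3 Slits, secreted ligands of Robo receptors, all had fold changes above 0, and 1 passed by edgeR, with Slit2 also called by DESeq2. Slit1 (chromosome 19, 41600257 to 41743665, minus strand), expressed mainly in the nervous system, was at 2.39, 13.2 and 17.5 CPM in libraries labelled 2KO, against 0.674, 0.420 and 0.654 CPM in those labelled control. Replicate 1 of the libraries labelled 2KO was far below the other two but above every one labelled control (log2 fold change 4.24, SE 0.72, edgeR adjusted p = 0.00693). Slit2, a repellent found in many tissues, was at 25.3, 8.11 and 13.03 CPM in libraries labelled 2KO, against 7.24, 4.81 and 2.03 CPM in those labelled control (log2 fold change 1.72, SE 0.54, edgeR adjusted p = 0.0843). It passed in 3 of 14 other fits: DESeq2, and edgeR with no low-count filter (0.0383) or with replicate number as a block (0.0254). Slit3 was the most abundant Slit per kb in both groups, at 4.05 CPM per kb in libraries labelled 2KO and 3.0 in those labelled control (edgeR adjusted p = 0.694), and its direction turned without 2KO replicate 1. Slit1 made up 4.94%, 52.7% and 41.3% of the Slit sum per kb in libraries labelled 2KO, against 2.26%, 3.11% and 4.33% in those labelled control.

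In the netrin family the gene that passed by edgeR was a netrin-G, a membrane-anchored relative that does not bind Dcc or Unc5. Ntng2 (chromosome 2, 29194541 to 29253005, minus strand), a synaptic adhesion molecule, was at 41.6, 28.4 and 18.6 CPM in libraries labelled 2KO, against 2.80, 3.58 and 3.14 CPM in those labelled control. The lowest library labelled 2KO was well above the highest one labelled control (log2 fold change 3.22, SE 0.35, edgeR adjusted p = 0.001). The row 6530402F18Rik, a transcript on the same strand that shares 558 exon bases (14.0%) with Ntng2, was at 13.8, 6.58 and 5.65 CPM in libraries labelled 2KO, against 0.639, 0.904 and 0.523 CPM in those labelled control (edgeR adjusted p = 0.0034), and reads of the shared bases cannot be assigned to one of them. Lrrc4, which encodes the netrin-G2 ligand and was chosen after its values were seen, was at 15.7 ± 4.64 CPM in libraries labelled 2KO and 37.1 ± 7.52 CPM in those labelled control (SD, n = 3 each; log2 fold change -1.24, SE 0.28, edgeR adjusted p = 0.0226).

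The secreted netrins did not pass by edgeR, while DESeq2 called Ntn3 (adjusted p = 0.0162) and the other netrin-G gene, Ntng1. Ntn3 was at 6.78, 9.28 and 7.06 CPM in libraries labelled 2KO, against 3.65, 3.45 and 3.07 CPM in those labelled control (log2 fold change 1.18 with SE 0.36, edgeR adjusted p = 0.0765), and Ntn1, the founding attractant, was at 7.60 ± 2.39 CPM in libraries labelled 2KO and 7.77 ± 1.36 CPM in those labelled control (edgeR adjusted p = 0.977). Ntng2 made up 54.9%, 51.2% and 31.5% of the netrin sum per kb in libraries labelled 2KO, against 11.3%, 14.2% and 14.3% in those labelled control, where Ntn4 was the most abundant member. Ntn5 had 9 counts over the libraries labelled 2KO and 3 over those labelled control and was not tested. Its exons overlap those of Sec1 on the other strand over 23.4% of their length, and the sources used here do not say whether counting used strand.

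**Figure D2:**
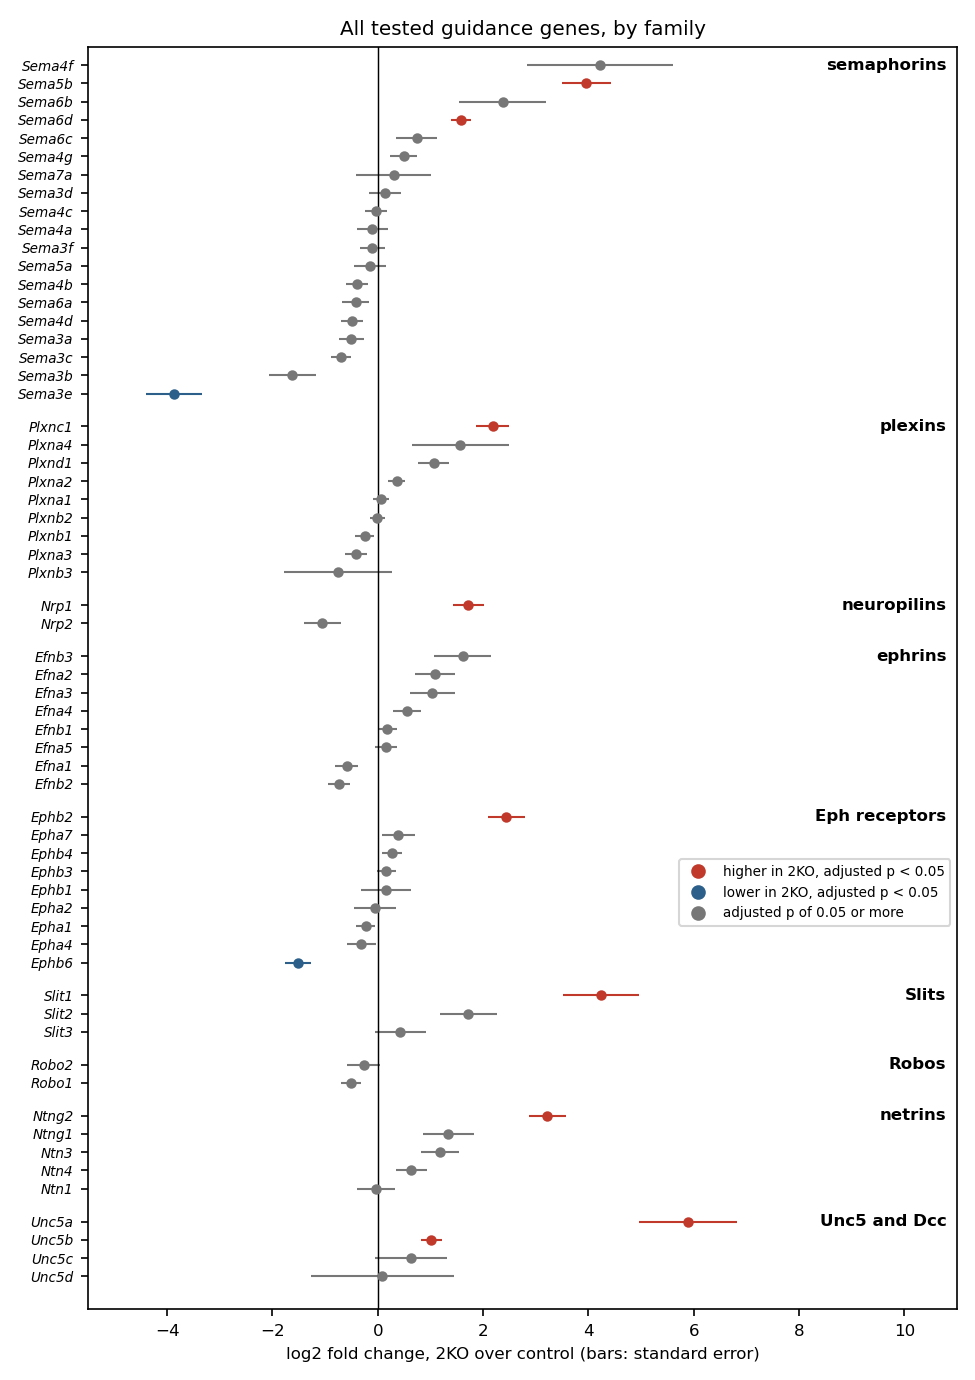
Fitted log2 fold change of 2KO over control for all 61 tested members, grouped by family and sorted within it, with bars for 1 standard error. Members past the threshold are coloured (9 higher, 2 lower), and they stand in 7 of the 9 families, with none among ephrins and Robos.

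Among the receptors, the netrin receptors of the Unc5 group held the largest fold change of any tested member. Unc5a (chromosome 13, 54949411 to 55006018, plus strand), a repulsive netrin receptor of neurons, was at 3.41, 4.51 and 6.79 CPM in libraries labelled 2KO, against 0.0709, 0 and 0.163 CPM in those labelled control. The gene was close to silent in all 3 libraries labelled control and present in all 3 labelled 2KO (log2 fold change 5.89, SE 0.93, edgeR adjusted p = 0.00468). Unc5b (chromosome 10, 60762593 to 60831581, minus strand), the Unc5 receptor of vessels and epithelia, was at 115, 131 and 157 CPM in libraries labelled 2KO, against 56.1, 76.9 and 65.5 CPM in those labelled control. Every library labelled 2KO was above every one labelled control (log2 fold change 1.02, SE 0.20, edgeR adjusted p = 0.0121). Per kb, Unc5b remained the main receptor of the group, at 93.5% ± 1.12 of the sum in libraries labelled 2KO and 97.6% ± 0.396 in those labelled control (SD, n = 3 each). Unc5c was at 4.90, 1.54 and 7.49 CPM in libraries labelled 2KO, against 1.10, 4.62 and 3.27 CPM in those labelled control, and Unc5d averaged 0.862 CPM in libraries labelled 2KO and 0.809 in those labelled control; neither passed (edgeR adjusted p = 0.679 and 0.983). Dcc, the attractive netrin receptor, had 8 counts in 1 library labelled 2KO and 0 in all libraries labelled control. Against a floor of 3 counts over the group the ratio was 2.96. This ratio takes the 8 counts as exact and so is not a lower bound. With no low-count filter the edgeR adjusted p of Dcc was 0.384.

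The neuropilins lay in opposite directions. Nrp1 (chromosome 8, 128358604 to 128503363, plus strand), a co-receptor of class 3 semaphorins and of VEGF, was at 28.8, 18.2 and 19.3 CPM in libraries labelled 2KO, against 7.88, 5.59 and 6.64 CPM in those labelled control. The lowest value in 2KO was more than the highest in control (log2 fold change 1.72, SE 0.30, edgeR adjusted p = 0.00726). Nrp2, which prefers other class 3 semaphorins and is known in lymphatic vessels, was at 269, 121 and 159 CPM in libraries labelled 2KO, against 570.2, 276 and 286 CPM in those labelled control. Here every library labelled 2KO lay below every one labelled control, replicate 1 was the highest of both groups, and the test did not pass (log2 fold change -1.05, SE 0.35, edgeR adjusted p = 0.107). Nrp2 passed in 5 of 14 other fits, among them DESeq2 (adjusted p = 0.0253), no low-count filter (0.0379), without both replicate-1 libraries (0.0219) and without 2KO replicate 1 alone (0.0401). Nrp2 stayed the more abundant of the pair per kb in every library. Nrp1 made up 11.5%, 15.4% and 12.8% of the neuropilin sum in libraries labelled 2KO, against 1.64%, 2.39% and 2.73% in those labelled control.

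**Figure D3:**
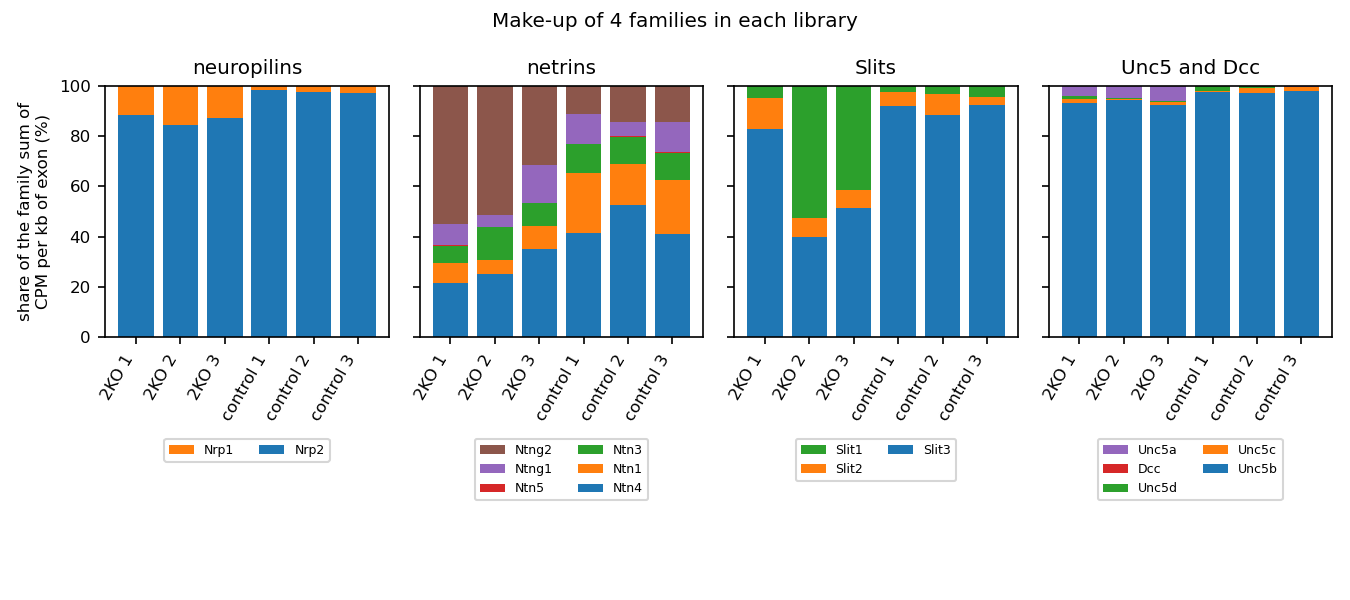
Share of each member in its family's sum of CPM per kb of exon (%), 1 bar per library, with the 2KO libraries left of the control libraries, for neuropilins, netrins, Slits and the Unc5 group with Dcc. Ntng2 and Nrp1 took a larger share in every 2KO library than in any control library, while the share of Slit1 in 2KO replicate 1 (4.94%) was close to that in control replicate 3 (4.33%).

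Of 9 tested plexins, the signaling receptors of semaphorins, 1 passed by edgeR and 2 by DESeq2. Plxnc1 (chromosome 10, 94790866 to 94944835, minus strand), the receptor of semaphorin 7A, was at 38.2, 33.6 and 41.3 CPM in libraries labelled 2KO, against 11.4, 4.88 and 8.66 CPM in those labelled control. The groups were far apart (log2 fold change 2.18, SE 0.32, edgeR adjusted p = 0.0036). Its ligand gene Sema7a was low in all libraries, at 1.92, 0.801 and 2.98 CPM in those labelled 2KO, against 2.45, 1.36 and 0.817 CPM in those labelled control (edgeR adjusted p = 0.868). Plxnd1, the receptor of semaphorin 3E, was at 30.98, 41.1 and 51.3 CPM in libraries labelled 2KO, against 14.8, 27.4 and 17.002 CPM in those labelled control, with no overlap but short of the threshold (log2 fold change 1.06, SE 0.30, edgeR adjusted p = 0.0579, DESeq2 adjusted p = 0.0102). Plxnd1 passed in 5 of 14 other fits, DESeq2 among them. By edgeR these were no low-count filter (0.0336), replicate number as a block (0.0278), and without 2KO replicate 1 (0.0418) or control replicate 2 (0.0328). The ligand Sema3e and the receptor Plxnd1 thus lay in opposite directions, of which the fall of the ligand passed in the main edgeR fit.

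The other 7 tested plexins did not pass, with log2 fold changes from -0.75 in Plxnb3 to 1.57 in Plxna4. Plxna4, a receptor of class 3 and class 6 semaphorins in axons, was at 4.63, 4.44 and 3.41 CPM in libraries labelled 2KO, against 3.41, 0.678 and 0.131 CPM in those labelled control (edgeR adjusted p = 0.375), and it passed without control replicate 1. Plxna2 was at 297, 238 and 253 CPM in libraries labelled 2KO, against 202, 209 and 203 CPM in those labelled control, with no overlap (edgeR adjusted p = 0.214). Plxna1, the most abundant per kb, was at 401, 436 and 405 CPM in libraries labelled 2KO, against 410.4, 403 and 377 CPM in those labelled control (log2 fold change 0.06, SE 0.15, edgeR adjusted p = 0.866). Plxnb2, which acts in epithelial cells, was at 242 ± 7.64 CPM in libraries labelled 2KO and 243 ± 8.76 CPM in those labelled control (SD, n = 3 each; log2 fold change -0.01, SE 0.14, edgeR adjusted p = 0.983). Summed per kb, the family reached 146 ± 8.41 in libraries labelled 2KO and 144 ± 4.44 in those labelled control. Plxna4os1 had 1 count in all 6 libraries.

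Eph receptors moved singly. Ephb2 (chromosome 4, 136647539 to 136835988, minus strand), a kinase that sorts epithelial cells in the intestine, was at 92.9, 93.7 and 78.0 CPM in libraries labelled 2KO, against 11.8, 26.2 and 10.6 CPM in those labelled control. Control replicate 2 was the highest of its group but still far below the libraries labelled 2KO (log2 fold change 2.44, SE 0.35, edgeR adjusted p = 0.00288). Ephb6 (chromosome 6, 41605482 to 41620509, plus strand), a family member whose kinase domain is inactive, was at 12.4, 19.5 and 21.7 CPM in libraries labelled 2KO, against 53.0, 46.9 and 53.8 CPM in those labelled control. It fell in all 3 (log2 fold change -1.52, SE 0.25, edgeR adjusted p = 0.00609). The other 3 EphB genes did not pass. Ephb4, the most abundant Eph receptor per kb, was at 245, 261 and 201 CPM in libraries labelled 2KO, against 152, 203 and 227 CPM in those labelled control (log2 fold change 0.28, SE 0.19, edgeR adjusted p = 0.473). Of the family sum per kb, Ephb2 made up 5.88% ± 0.651 in libraries labelled 2KO and 1.09% ± 0.595 in those labelled control, and Ephb6 4.11% ± 1.6 in libraries labelled 2KO and 11.4% ± 0.761 in those labelled control (SD, n = 3 each).

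None of 4 tested EphA genes passed by edgeR or DESeq2. None had an unadjusted p under 0.05, beside 3227 of all 14972 tested genes that did. Epha4 was at 179, 83.3 and 97.5 CPM in libraries labelled 2KO, against 158, 150.4 and 137 CPM in those labelled control (edgeR adjusted p = 0.586), and Epha2, a receptor of keratinocyte junctions, was at 143, 48.5 and 64.3 CPM in libraries labelled 2KO, against 125, 67.3 and 72.8 CPM in those labelled control (edgeR adjusted p = 0.968). In both genes replicate 1 was the highest of either group. A further 5 EphA genes were too low to be tested. Epha3 had 48 counts over the libraries labelled 2KO, present in all 3, and 1 count over those labelled control, a ratio of 53.2 (95% exact counting interval 9.10 to 2140), and with no low-count filter its edgeR adjusted p was 0.0927. Epha8 had 27 counts over the libraries labelled 2KO, 14, 1 and 12 in replicates 1, 2 and 3, and 0 over those labelled control. Its ratio to the floor of 3 counts was 9.98 (edgeR adjusted p = 0.142 with no low-count filter). Epha6 had 1 count in libraries labelled 2KO and 0 in those labelled control, which allows no fold.

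The Robo receptors did not pass. Robo1, at 23.0 CPM per kb in libraries labelled 2KO and 32.5 in those labelled control, was the most abundant member; its CPM was 344, 384 and 410.0 in libraries labelled 2KO, against 665, 465 and 478 in those labelled control (log2 fold change -0.50, SE 0.19, edgeR adjusted p = 0.148). By edgeR neither of the 2 tested Robos passed, and DESeq2 called none. An unadjusted p under 0.05 was found for 1 of the 2, beside 3227 of all 14972 tested genes. Robo3, a receptor of crossing axons in the spinal cord, had 6 counts over the libraries labelled 2KO, 0, 1 and 5 in replicates 1, 2 and 3. It had 0 over those labelled control, and the ratio to the floor of 3 counts was 2.22 (edgeR adjusted p = 0.404 with no low-count filter). Robo4, the endothelial Robo, had 24 counts over the libraries labelled 2KO and 28 over those labelled control. By replicate these were 23, 0 and 1 in libraries labelled 2KO and 18, 0 and 10 in those labelled control, so the sums rest on few libraries.

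A list of 76 other co-receptors, modulators and intracellular effectors of guidance signaling was read from the same fit. Of 73 tested, 5 were higher and 2 lower in libraries labelled 2KO (9.59% called, beside 9.02% of all tested genes), with a median log2 fold change of 0.13. The risers were 3 collapsin response mediators, which relay semaphorin signals to microtubules, and 2 guanine nucleotide exchange factors. Dpysl5 was at 196, 277 and 239 CPM in libraries labelled 2KO, against 34.3, 59.9 and 28.8 CPM in those labelled control (log2 fold change 2.53, SE 0.29, edgeR adjusted p = 0.00117). Its groups were well apart. Dpysl4 was at 2.75, 2.24 and 2.08 CPM in libraries labelled 2KO, against 0.0355, 0.0646 and 0 CPM in those labelled control (edgeR adjusted p = 0.00693), and Dpysl3 at 178, 104 and 77.5 CPM in libraries labelled 2KO, against 31.8, 49.4 and 33.7 CPM in those labelled control (edgeR adjusted p = 0.0121). Near silent in libraries labelled control, Dpysl4 entered the test only through those labelled 2KO, so its direction was tied to the filter.

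Ngef, which encodes ephexin, an exchange factor that acts under EphA receptors, was at 18.6, 18.1 and 11.8 CPM in libraries labelled 2KO, against 0.177, 1.68 and 1.99 CPM in those labelled control (log2 fold change 3.65, SE 0.68, edgeR adjusted p = 0.0107). Vav2, which acts under Eph receptors in axons, was at 43.6 ± 3.04 CPM in libraries labelled 2KO and 17.2 ± 2.70 CPM in those labelled control (edgeR adjusted p = 0.00557). The 2 that were lower were ligands of neogenin: Rgmb, at 21.6, 31.2 and 38.6 CPM in libraries labelled 2KO, against 54.7, 70.6 and 65.7 CPM in those labelled control (edgeR adjusted p = 0.0277), and Rgma, named after its values were seen, at 128 ± 23.3 CPM in libraries labelled 2KO and 216 ± 19.7 CPM in those labelled control (edgeR adjusted p = 0.0317). These 2 calls were the least steady: Rgmb lost its call in 6 of 14 other fits and Rgma in 7 of 14, with adjusted p from 0.00175 to 0.0937 and from 0.00611 to 0.224. Dpysl3 lost its call with Xist as a covariate (0.0639) and without both replicate-3 libraries (0.0574), and Vav2, Dpysl4 and Ngef lost theirs only without both replicate-3 libraries, among the 14 fits. The GTPase Rac1 and the actin regulator Cfl1, the most abundant of the list per kb, did not pass (edgeR adjusted p = 0.458 and 0.818).

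Markers of other cell types were read beside these genes, since several guidance genes are also known from vessels, nerves and mesenchyme. Of 10 endothelial markers 6 could be tested and none passed. Of these 6, 4 had log2 fold changes below 0 (median -0.15 over the 6). The summed level of the 10 ran from 4.64 to 19.3 CPM in libraries labelled 2KO and from 6.33 to 13.7 CPM in those labelled control. Kdr, a VEGF receptor of endothelial cells, was at 2.47, 1.03 and 1.92 CPM in libraries labelled 2KO, against 0.177, 0.387 and 0.36 CPM in those labelled control, with no overlap (edgeR adjusted p = 0.0803). Of 10 neuronal markers 6 were tested and none passed, with sums from 6.59 to 13.2 CPM in libraries labelled 2KO and from 4.97 to 16.9 CPM in those labelled control. Of these 6, 5 had log2 fold changes above 0 and 1 below (median 0.96 over the 6). Elavl3 was at 2.12, 1.47 and 1.29 CPM in libraries labelled 2KO, against 0.745, 0.194 and 0.523 CPM in those labelled control, with no overlap (edgeR adjusted p = 0.238). Nefl was at 0 in all libraries labelled 2KO and Elavl4 in all labelled control. Of 10 Schwann cell and nerve markers 8 were tested and none passed (sums from 138 to 161 CPM in libraries labelled 2KO and from 151 to 171 CPM in those labelled control, with Cdh19 at 0 in all labelled 2KO and Foxd3 in all labelled control).

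Of 10 dermal fibroblast markers 9 were tested and 2 were higher, Pdgfra and Fbn1 (edgeR adjusted p = 0.00348 and 0.00405), while the sum of the list overlapped, from 708 to 879 CPM in libraries labelled 2KO and from 415 to 778 CPM in those labelled control. Of 6 Merkel cell markers 1 was higher, Krt18, and their sum ran from 17.5 to 50.7 CPM in libraries labelled 2KO and from 7.13 to 15.3 CPM in those labelled control. Krt18 carried that sum, at 45.7, 12.75 and 13.2 CPM in libraries labelled 2KO, against 1.03, 3.13 and 0.85 CPM in those labelled control. The median over the tested Merkel markers was -0.51 on the log2 scale, and Krt20 and Atoh1 lay wholly below the libraries labelled control, at 0.349 ± 0.252 and 0.0654 ± 0.113 CPM in libraries labelled 2KO and 2.06 ± 0.769 and 1.53 ± 1.72 CPM in those labelled control (SD, n = 3 each). Of 8 hair follicle markers 4 were lower (Shh, Lgr5, Krt25 and Krt71), beside the fall of Sema3e and Ephb6; the follicle sum ran from 1043 to 1779 CPM in libraries labelled 2KO and from 1080.5 to 1810.0 CPM in those labelled control. Of the 8, 7 had fold changes below 0 (median -1.44) and in 5 every library labelled 2KO lay below every one labelled control. Krt17, at 790.4 ± 217 CPM in libraries labelled 2KO and 428 ± 85.8 CPM in those labelled control (edgeR adjusted p = 0.0514), and Sox9, at 331 ± 158 CPM in libraries labelled 2KO and 359.7 ± 130.3 CPM in those labelled control, made up most of the sum. Lgr5, a marker of lower follicle stem cells, was at 23.7, 2.27 and 12.7 CPM in libraries labelled 2KO, against 200.3, 81.9 and 74.1 CPM in those labelled control, with replicate 1 the highest of both groups as for Sema3e and Nrp2. Such a rank is common: control replicate 1 was highest for 50.8% of tested members and 36.3% of all tested genes. For 2KO replicate 1 these shares were 32.8% and 37.4%. No melanocyte (7 tested), immune (4), basal keratinocyte (6) or suprabasal (5) marker passed. Gfra3, Lhx2, Krt10 and Trp63 lay lower in libraries labelled 2KO without overlap but did not pass (edgeR adjusted p = 0.0862, 0.0558, 0.0598 and 0.0872). The part of these markers in the results for the guidance genes was not tested.

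The calls of 6 members, Ephb2, Ntng2, Sema3e, Sema5b, Sema6d and Unc5a, held under each of 14 other fits. The other 5 lost theirs without both replicate-3 libraries, where 2 libraries stand against 2 and high Xist goes with the 2KO label. In that fit 309 of all tested genes were higher and 72 lower, beside 989 and 362 in the main fit. The fit of the same size without both replicate-1 libraries kept all 11, with 731 of all tested genes higher and 262 lower. Why calls were lost was not tested. Without both replicate-3 libraries the adjusted p was 0.0545 for Ephb6, 0.0738 for Nrp1, 0.0674 for Plxnc1, 0.105 for Slit1 and 0.134 for Unc5b. Unc5b also missed the threshold without control replicate 3 (0.0511). With Xist as a covariate all 11 calls were kept.

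**Figure D4:**
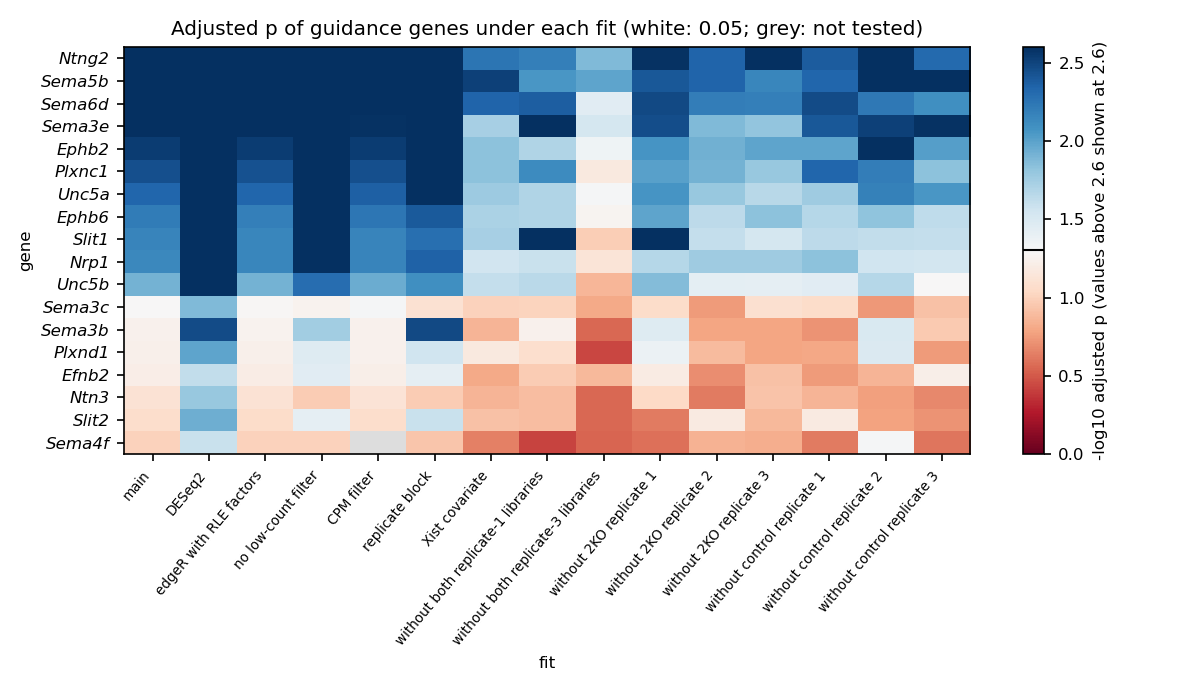
Adjusted p, as -log10, of the 11 members past the threshold and the 7 with an adjusted p between 0.05 and 0.1 (rows), under the main fit and 14 other fits (columns). Blue is below 0.05 and red above; the column without both replicate-3 libraries holds 6 blue cells, and that of DESeq2 is blue for all 18.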

How the data were processed

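Skin cells sorted at postnatal day 0 gave 3 libraries labelled Ring1a/b 2KO and 3 labelled control, sequenced as reads of 100 nt after amplification, per the labels' protocols. The deposited files hold raw counts per gene symbol, 24453 per library. Per the submitters' processing notes the authors' tools included DESeq2 1.6.3, HTSeq 0.6.1, TopHat2 2.0.13 and Cufflinks 2.2.1, with build mm10; the sources used here give neither their roles nor the annotation or use of strand. Reads carry no molecular identifiers, so intervals cover counting error only, and a floor covers it only in the group at 0 counts.

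Low counts were filtered with filterByExpr (edgeR 4.0.16, R 4.3.3), and the rest were scaled by TMM and compared with the quasi-likelihood test, with no covariate and with Benjamini-Hochberg adjustment over 14972 genes; the threshold was 0.05. The code was tested on simulated data. SE is the log2 fold change divided by the root of F. A fold against 0 counts uses a floor of 3 counts over the group and takes the counts of the other group as exact, so it is not a lower bound. Exon lengths and coordinates are from GENCODE M21 (GRCm38), in which 97.1% of rows matched 1 gene. An exon length counts each base of any annotated exon of the gene once, so levels and shares per kb depend on the annotation. Start-site sequences are from RefSeq (GRCm38.p6). Alternatives were DESeq2 1.42.0, RLE scaling, no filter, a filter of 1 CPM in 3 libraries, a replicate block, Xist as a covariate, and leaving out libraries singly or by replicate number. Named were all members past the threshold, those with an adjusted p up to 0.1, those at 0 in a group, the most abundant per family, and the leading genes of the effector list. The members, lists and tests were chosen with earlier results of these data known.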

Additional observations from a re-analysis of the deposited data

How the results depend on the processing

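Of the single guidance and effector genes followed through 14 other fits, 6 members and Dpysl5 kept their call in every one. The direction of Efna5 turned without 2KO replicate 1 (log2 fold change -0.06), that of Slit3 in the same fit (-0.15), and that of Sema3f without 2KO replicate 1 (0.11) or control replicate 3 (0.01); none of these passed in any fit. With single libraries left out Efna5 ranged from -0.06 to 0.29, Slit3 from -0.15 to 0.90 and Sema3f from -0.27 to 0.11. With DESeq2, 16 members were higher and 6 lower, 8 and 4 of the effector list, and 1415 and 733 of all genes. The number of lower members was 5 with no low-count filter, where 474 of all genes were lower. It was also 5 with the replicate block, in which 13 members were higher, beside 1142 of all genes higher and 540 lower. The 11 members called without the block were among the 18 called with it, and Nrp2 (edgeR adjusted p = 0.00322) and Sema3b (0.00337) were gained. The deviations of same-numbered libraries correlated at 0.323 for replicate 1, the highest of the 9 pairs, 0.0958 for replicate 2 and -0.13 for replicate 3. Deviations were taken from means of 3 libraries, which ties the 9 values to each other. They cannot decide whether the numbers pair the libraries. With Xist as a covariate 231 of all genes and 1 of the effector list were lower, and without both replicate-1 libraries 1 of the effector list was lower. Without both replicate-3 libraries 5 members were higher and 1 lower, 1 and 0 of the effector list, and 309 and 72 of all genes. With single libraries left out, members higher ranged from 8 to 12 and lower from 2 to 4. The effector list ranged from 5 to 7 higher and from 0 to 1 lower, and all genes from 615 to 854 higher and from 184 to 347 lower. The lowest count of genes higher was that without control replicate 3. The causes were not tested. With 1 count worth at least 0.0323 CPM, differences among the 11 members too low to be tested were mostly not detectable at this depth.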
